A study of Mus musculus with 8 samples.

Results

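The genes that encode the machinery of messenger RNA synthesis were examined: the subunits of RNA polymerase II (Pol II), the Mediator complex, the TBP-associated factors (TAFs) and the general transcription factors TFIIA, TFIIB, TFIIE, TFIIF and TFIIH. They were chosen by a rule on gene symbols (Polr2a to Polr2m, Med, Taf and Gtf2a to Gtf2h names), which gave 76 of the 43629 genes counted. The rule itself used no measured values, but it was set with earlier results of these data known. All 76 are annotated as protein coding.

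Gene expression was measured by RNA-seq in 2 mouse B cell lymphoma lines, #1.1 and #1.2, both derived from Eμ-Myc animals on the C57BL/6 background. In this model the immunoglobulin heavy chain enhancer (Eμ) drives a Myc transgene, so every group carried it, and the endogenous Myc gene is not told apart from it in gene counts. Early passage cells were held for 2 h in 250 nM JQ1, an inhibitor that displaces BET bromodomain proteins from acetylated chromatin, or in its solvent DMSO. The 4 groups were line 1.1 in JQ1, line 1.1 in DMSO, line 1.2 in JQ1 and line 1.2 in DMSO, with 2 libraries each. The labels do not say that replicates were separate cultures, so the spread behind each p-value may be purely technical, and 2 lines do not stand for the tumour type.

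Pol II makes all messenger RNA, and its largest subunit carries a tail of short repeats whose phosphorylation marks the steps of the transcription cycle. At a promoter, TFIID (the TATA-binding protein TBP with its TAFs), TFIIA and TFIIB place the polymerase, TFIIF and TFIIE join it, and TFIIH opens the DNA. Mediator, built of a head, a middle, a tail and a detachable kinase module, links activators and enhancers to that assembly, and BET proteins are known to act at the same enhancers and promoters.

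Gene reads per library ran from 10347453 to 13049877. The 76 genes took 0.534 to 0.542% of the gene reads in the 4 JQ1 libraries, against 0.477 to 0.488% in the 4 DMSO libraries, and without Polr2a these shares were 0.448 to 0.454% in JQ1 and 0.437 to 0.449% in DMSO. Of 8 B lineage markers 7 passed the expression filter, and their summed level was 2758 to 3203 CPM (reads scaled to library size) in JQ1 and 3246 to 3569 CPM in DMSO. None of 21 markers of T cells, myeloid cells, NK cells and erythroid cells passed it, and their lists summed to less than 1 CPM in every library, with Cd3e, Cd4, Lyz2 and Ncr1 at 0. Of 5 stromal and endothelial markers only Cdh5 passed, with 0 to 0.352 CPM in JQ1 and 1.15 to 1.53 CPM in DMSO. The ribosomal RNA-like gene Gm42418 had 475 and 493 CPM in line 1.1 JQ1, 361 and 977 CPM in line 1.1 DMSO, 1296 and 2644 CPM in line 1.2 JQ1, and 383 and 341 CPM in line 1.2 DMSO. The part of these shifts in the results below was not tested, except that a fit with Gm42418 as a covariate called 36 of the genes described here for the averaged JQ1 effect, against 42 without it.

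RefSeq promoter windows of build GRCm38.p6, from 250 bases before to 50 bases after the start, were at hand for 65 of the 76 genes (78 windows, since some genes have several starts). The 5 printed here were chosen because the results turn on these genes, the 4 whose transcripts rose at least 1.5-fold under JQ1, Polr2a, Taf13, Gtf2b and Med1, and Polr2i, the core Pol II subunit called lower in the averaged effect. Capitals mark exact matches, on either strand, to the TATA box (TATAAA), the CCAAT box (CCAAT), the GC box (GGGCGG), the ETS core (CCGGAA) and the E-box (CACGTG), which Myc with Max can bind. The windows lie at chr11:69758584-69758883 (minus strand) for Polr2a, chr3:108571449-108571748 (plus strand) for Taf13, chr3:142764997-142765296 (plus strand) for Gtf2b, chr11:98192857-98193156 (minus strand) for Med1 and chr7:30231824-30232123 (plus strand) for Polr2i.
Polr2a: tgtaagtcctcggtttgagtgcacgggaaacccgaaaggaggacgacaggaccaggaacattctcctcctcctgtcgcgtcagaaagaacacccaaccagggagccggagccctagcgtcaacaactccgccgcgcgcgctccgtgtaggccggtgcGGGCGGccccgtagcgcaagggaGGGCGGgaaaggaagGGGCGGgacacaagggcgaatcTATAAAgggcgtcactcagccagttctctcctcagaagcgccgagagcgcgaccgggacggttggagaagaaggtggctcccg
Taf13: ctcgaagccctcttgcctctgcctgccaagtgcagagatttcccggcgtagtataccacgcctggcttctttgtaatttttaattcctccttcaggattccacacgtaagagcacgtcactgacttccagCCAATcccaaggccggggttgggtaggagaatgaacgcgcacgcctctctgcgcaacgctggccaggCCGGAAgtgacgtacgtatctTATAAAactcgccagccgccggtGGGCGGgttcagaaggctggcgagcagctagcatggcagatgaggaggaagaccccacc
Gtf2b: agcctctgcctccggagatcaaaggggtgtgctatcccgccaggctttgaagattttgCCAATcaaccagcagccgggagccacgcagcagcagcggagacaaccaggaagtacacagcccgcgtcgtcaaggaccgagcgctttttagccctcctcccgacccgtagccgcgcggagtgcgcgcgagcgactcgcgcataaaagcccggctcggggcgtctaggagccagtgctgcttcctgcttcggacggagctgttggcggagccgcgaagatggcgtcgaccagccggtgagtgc
Med1: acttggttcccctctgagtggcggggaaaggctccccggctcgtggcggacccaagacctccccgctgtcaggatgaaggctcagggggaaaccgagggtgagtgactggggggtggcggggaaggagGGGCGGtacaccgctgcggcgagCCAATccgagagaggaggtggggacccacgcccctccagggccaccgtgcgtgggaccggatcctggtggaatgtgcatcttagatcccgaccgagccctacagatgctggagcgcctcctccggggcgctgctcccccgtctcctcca
Polr2i: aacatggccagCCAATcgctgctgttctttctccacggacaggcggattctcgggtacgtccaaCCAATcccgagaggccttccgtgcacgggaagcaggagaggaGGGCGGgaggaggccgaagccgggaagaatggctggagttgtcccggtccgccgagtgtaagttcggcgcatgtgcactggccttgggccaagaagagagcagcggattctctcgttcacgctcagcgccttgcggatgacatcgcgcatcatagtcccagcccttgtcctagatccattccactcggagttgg
The Polr2a window holds 3 GC boxes, at 93, 70 and 55 bases before the start, and a TATA box at 33 bases before it. In Taf13 a CCAAT box lies 120, an ETS core 53, a TATA box 32 and a GC box 9 bases before the start. Gtf2b has a CCAAT box at 192 bases before the start and no other match. Med1 has a GC box at 122 and a CCAAT box at 99. Polr2i has CCAAT boxes at 239 and 186 and a GC box at 144. These positions are relative to the RefSeq start. In GENCODE M21 the Med1 gene (minus strand) begins at 98193293, so its window lies wholly inside the gene. The Gtf2b and Polr2i genes begin there at 142765045 and 30231948, before the RefSeq start of their windows. The Gtf2b CCAAT box is inside the annotated gene.

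These 78 windows had a median of 58.3% GC and 22 CpG sites, against 52.7% and 7 over all 32851 RefSeq windows. The GC box was present in 64.1% of the 78 against 35.7% of all windows. For the ETS core the shares were 43.6% against 14.9%, and for the E-box 19.2% against 7.15%. The CCAAT box was in 30.8% against 37.4%, and TATAAA at any position in 15.4% against 13.6%. The background of all windows covers 27025 genes and is not limited to genes expressed in these cells. Windows of expressed genes alone were not compared, so these differences may not be particular to this machinery. A TATAAA on the gene's own strand, 40 to 20 bases before the start, was found in 2 of the 78 windows, those of Polr2a and Taf13, and in 655 of all 32851 (1.99%). That position was set after the matches of Polr2a and Taf13 were seen, in windows printed because these genes rose under JQ1. Polr2a and Taf13 are also the 2 genes of the 76 whose transcripts rose at least 2-fold under JQ1. Because the position came from their windows, this coincidence cannot serve as evidence, and a link was not tested. TATAAA at any position was in 5 of 27 windows of genes that rose (18.5%), those of Polr2a and Taf13 among them. It was in 1 of 15 windows of genes that fell (6.67%) and 5 of 31 of genes not called (16.1%). In the same order, the ETS core was in 33.3%, 60% and 51.6%, and the E-box in 18.5%, 26.7% and 12.9%. The GC box was in 63%, 60% and 67.7%, and the CCAAT box in 29.6%, 33.3% and 35.5%. These splits rest on few windows and were not tested. A match is a string of letters, not a measured site.

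The main comparison asked how JQ1 changed the transcripts of this machinery. Polr2a and Taf13 more than doubled, Gtf2b and Med1 rose at least 1.5-fold, and most of the other genes moved by less or were not called. Of the 76 genes, 72 passed the expression filter. In the edgeR quasi-likelihood test over all 12413 genes, with Benjamini-Hochberg adjustment and the JQ1 effect averaged over both lines, 27 of the 72 were higher in JQ1 (37.5%, against 30.7% of all genes tested) and 15 lower (20.8%, against 31.3%). The other 30 were not called, so that 58.3% were called, against 62% of all genes tested. Changes were mostly small: the median size of the log2 change was 0.15 over the 72 and 0.25 over all genes tested. The median change itself was 0.06 over the 72 and 0.00 over all genes. Rises of at least 1.5-fold numbered 4 (8.21% of all genes tested) and falls of that size 0 (11.9% of all). CPM is relative to each library's total after TMM scaling, by factors of 0.982 to 0.988 in JQ1 and 1.01 to 1.02 in DMSO. With unscaled library totals the median change was 0.02 over the 72 and -0.04 over all genes. With either scaling, a change in RNA per cell, or in the share of cells, cannot be told apart from a change in these transcripts.

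In each line the calls were fewer. Under JQ1, 19 of the 72 rose and 15 fell in line 1.1 (24.9% and 26.1% of all genes tested, 51% together) and 21 rose and 12 fell in line 1.2 (24.4% and 25% of all, 49.4% together). Tested in each line alone, 18 genes were higher in both lines (19.5% of all) and 11 lower in both (20.7% of all), none was called in opposite directions, 5 were called in line 1.1 alone and 4 in line 1.2 alone. Both JQ1 libraries lay above both DMSO libraries in each line for 26 of the 72 (28.8% of all genes tested) and below them in each line for 17 (29.8% of all). Of the 42 calls of the averaged effect, 32 held whichever library was left out. How many calls over all genes tested held in this way was not counted, so this figure has no background. The other 10, Med10, Med27, Med28, Med30, Taf4b, Taf6, Taf10, Gtf2e2, Gtf2h3 and Gtf2h5, lost the call without at least 1 library, with adjusted p-values between 0.0508 and 0.292 there, and 9 of these 10 also lost it with DESeq2 in place of edgeR. Of the 32, Polr2j and Taf3 lost the call in the fit with Gm42418 as a covariate.

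**Figure D1:**
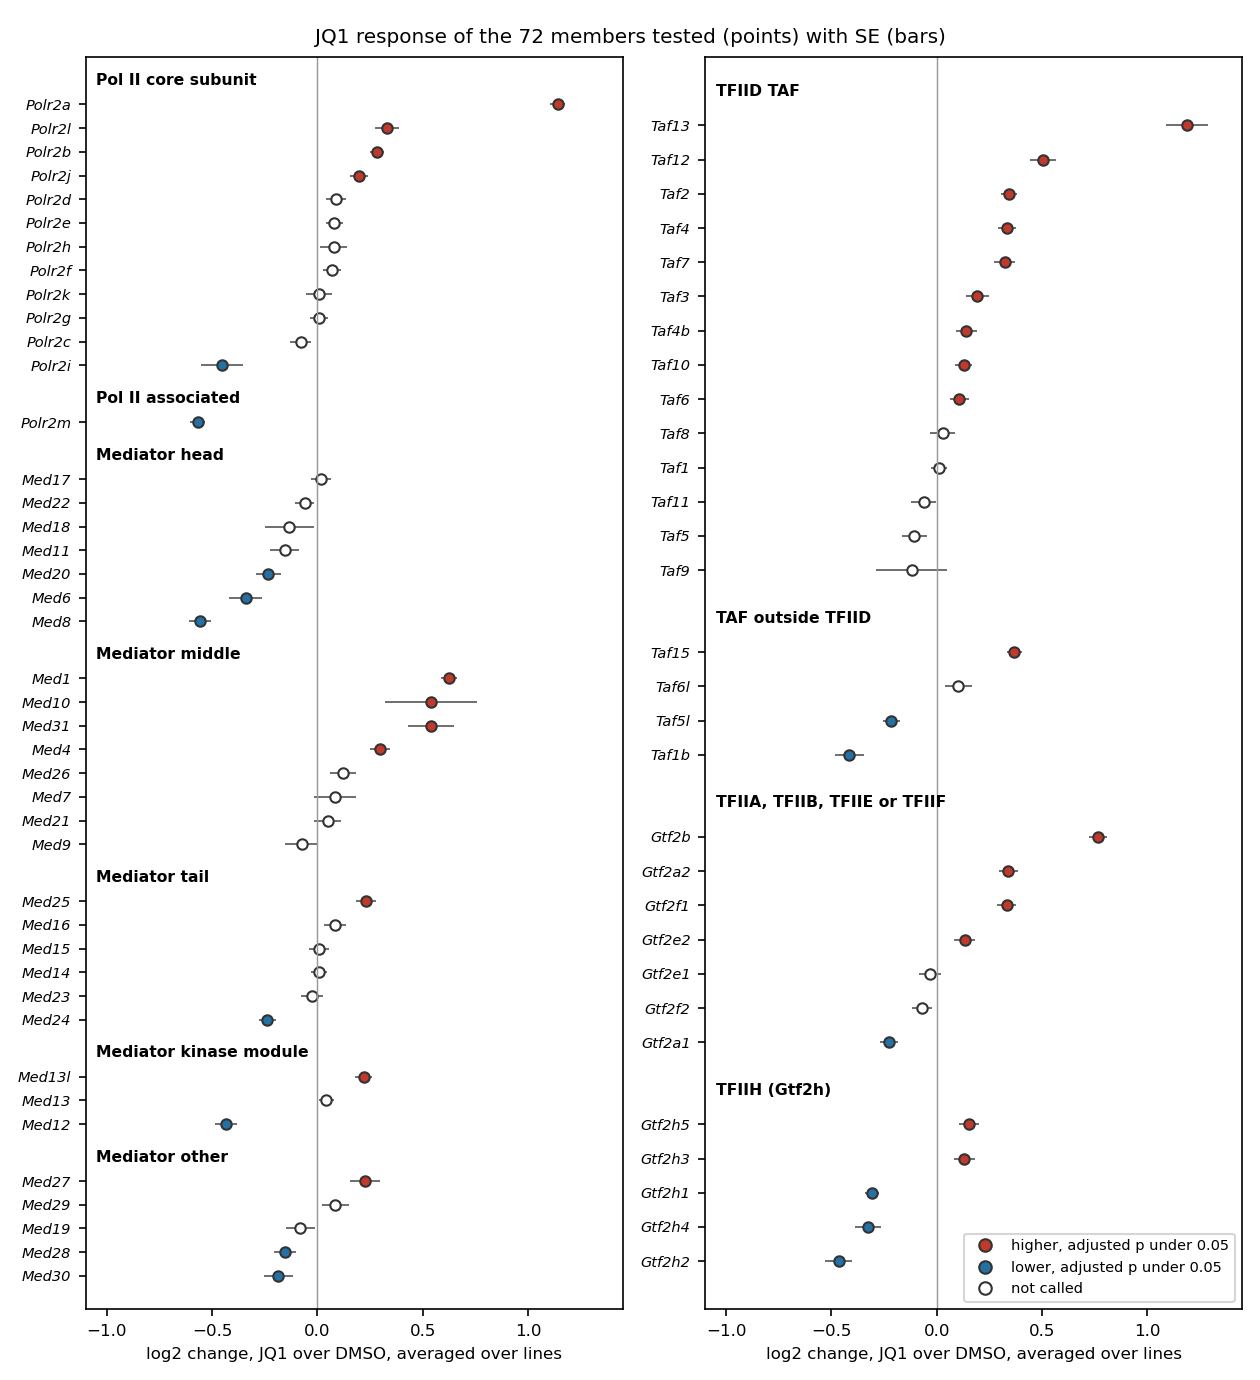
Points give the log2 change, JQ1 over DMSO, averaged over both lines for the 72 genes tested, grouped by complex, with bars of 1 standard error; filled points passed an adjusted p of 0.05. Polr2a (1.14) and Taf13 (1.19) stand at the right, and Polr2m (-0.57) and Med8 (-0.56) at the left.

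Within Pol II, the transcript of the largest subunit rose and those of most other subunits stayed close to their DMSO levels. Polr2a encodes the catalytic subunit with the repeat tail and lies on chromosome 11 (69733997 to 69758637, minus strand, GRCm38). It had 891 and 917 CPM in line 1.1 JQ1 and 872 and 862 CPM in line 1.2 JQ1, against 387 and 432 CPM in line 1.1 DMSO and 396 and 393 CPM in line 1.2 DMSO. All 4 JQ1 libraries lay far above all 4 DMSO libraries. The log2 change was 1.14 ± 0.05 (SE) in line 1.1 and 1.14 ± 0.05 in line 1.2, and the averaged change of 1.14 ± 0.03 had an adjusted p of 8.5e-19. Between 9722 and 10779 reads per JQ1 library and between 4385 and 5091 reads per DMSO library stood behind these values.

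Of the 12 core subunits, 4 rose, 1 fell and 7 were not called in the averaged effect, with a median log2 change of 0.08. The share that rose, 33.3%, was near the 30.7% of all genes tested, and 8.33% fell against 31.3% of all. Besides Polr2a, the other large catalytic subunit Polr2b rose by 0.28 ± 0.03 (adjusted p = 7.19e-08). It had 303 and 305 CPM in line 1.1 JQ1 and 311 and 298 CPM in line 1.2 JQ1, against 263 and 247 CPM in line 1.1 DMSO and 245 and 245 CPM in line 1.2 DMSO, with no overlap. Polr2l, a small subunit shared by all nuclear RNA polymerases, rose by 0.33 ± 0.06. Polr2j, which pairs with Polr2c in the assembly platform, rose by 0.20 ± 0.04 in the averaged effect. Its change was 0.06 ± 0.06 in line 1.1 (adjusted p = 0.405), where its libraries overlapped, and 0.33 ± 0.06 in line 1.2 (adjusted p = 0.000105), and with Gm42418 as a covariate the averaged change was 0.10 (adjusted p = 0.172) and not called. Polr2c, the stalk subunits Polr2d and Polr2g and the shared subunits Polr2e, Polr2f, Polr2h and Polr2k were not called in the averaged effect, with log2 changes between -0.08 and 0.09. In line 1.1 alone Polr2c fell, by 0.19 (SE 0.07, adjusted p = 0.0249), against 0.03 ± 0.07 in line 1.2, where it was not called. Polr2c shares 18.1% of its exon bases with Dok4 on the opposite strand, which rose by 2.24 in the averaged effect (adjusted p = 0.000135). Polr2j shares 15.9% with Lrwd1 on the opposite strand, which changed by -0.13 (adjusted p = 0.0153). The part of overlapping genes in these values was not tested.

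Polr2i, a small subunit that in yeast is needed for accurate RNA synthesis and transcript cleavage, was the core subunit called lower in the averaged effect. Its levels were 7.68 and 9.12 CPM in line 1.1 JQ1 and 9.07 and 8.33 CPM in line 1.2 JQ1, against 12.8 and 13.2 CPM in line 1.1 DMSO and 11.6 and 9.61 CPM in line 1.2 DMSO. Both JQ1 libraries were below both DMSO libraries in each line. The averaged log2 change was -0.45 ± 0.10 (adjusted p = 0.000357), with -0.63 ± 0.14 in line 1.1 and -0.28 ± 0.14 in line 1.2, where the adjusted p was 0.115. Of its exon bases 26.8% are shared with Tbcb on the opposite strand, which had a log2 change of -0.06 (adjusted p = 0.515).

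Polr2m, whose product (also called Gdown1) binds Pol II and competes with TFIIF, had the most negative averaged change of the 72. In JQ1 it had 123 and 129 CPM in line 1.1 and 128 and 128 CPM in line 1.2, against DMSO levels of 186 and 186 CPM in line 1.1 and 193 and 188 CPM in line 1.2. The JQ1 libraries were all below the DMSO libraries. The log2 change was -0.57 ± 0.03 (adjusted p = 6.37e-13), and it was -0.56 in line 1.1 and -0.58 in line 1.2.

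Levels per exon length, as TPM (reads per exon length, scaled to the same sum in each library), set subunits roughly beside each other. The length is that of all annotated exons of a gene together, not of the transcript present. Ranks and ratios between genes therefore depend on the annotation, whereas each gene has the same length in all libraries. Polr2a stood at 274 to 293 TPM in the JQ1 libraries and at 131 to 147 TPM in the DMSO libraries. The median of the other 11 core subunits was 80.1 to 89.4 TPM in JQ1 and 82.1 to 89.7 TPM in DMSO. The ratio of Polr2a to that median was therefore 3.14 to 3.66 in JQ1 and 1.57 to 1.64 in DMSO, with no overlap, and its ratio to Polr2b was 1.85 to 1.99 in JQ1 and 0.973 to 1.15 in DMSO. In every JQ1 library Polr2a was the highest core subunit per length, above Polr2j (178 to 198 TPM), whereas in every DMSO library Polr2j was higher (163 to 197 TPM). Polr2a took 15.9 to 16.6% of all reads of the 76 genes in JQ1 and 8 to 8.96% in DMSO. Lowest of the core subunits by this measure were Polr2c, with a mean of 28.6 TPM over the 8 libraries, and Polr2i, with 19.6 TPM. They share 18.1% and 26.8% of their exon bases with genes on the opposite strand, where reads may be lost.

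**Figure D2:**
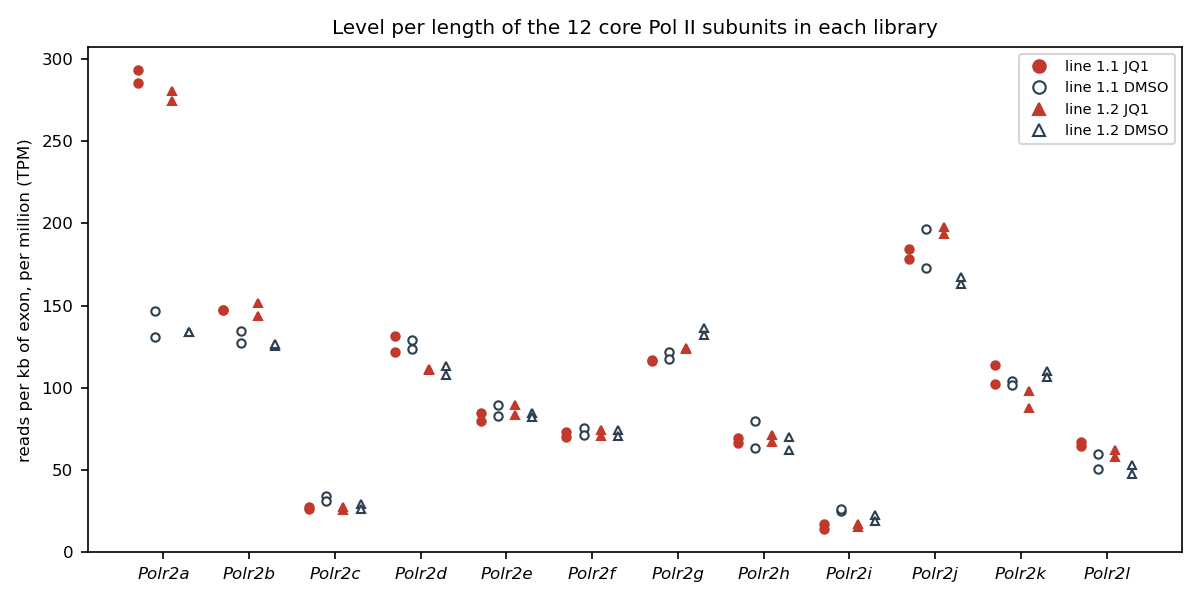
The level per exon length (TPM, linear axis from 0) of the 12 core Pol II subunits is shown for each library, with filled symbols for JQ1, open symbols for DMSO, circles for line 1.1 and triangles for line 1.2. Polr2a lies at 274 to 293 TPM in JQ1 and 131 to 147 TPM in DMSO, while most other subunits keep their place.

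Fewer of the Mediator genes were called than of all genes tested. Of 29 Mediator genes tested, 7 rose, 7 fell and 15 were not called, with a median log2 change of 0.01. The shares, 24.1% higher and 24.1% lower, lay below the 30.7% and 31.3% of all genes tested. In the middle module 4 of 8 rose (50%, against 30.7% of all genes tested) and none fell, with a median of 0.21. In the head module 3 of 7 fell (42.9%, against 31.3% of all) and none rose, with a median of -0.16. The difference between modules was not tested.

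Med1, the middle subunit that contacts nuclear receptors and other activators, changed most of the Mediator genes that rose. It had 199 and 197 CPM in line 1.1 JQ1 and 201 and 203 CPM in line 1.2 JQ1, against 124 and 138 CPM in line 1.1 DMSO and 127 and 131 CPM in line 1.2 DMSO. Every JQ1 library exceeded every DMSO library. Its log2 change was 0.63 ± 0.04 (adjusted p = 4.61e-13), with 0.60 in line 1.1 and 0.65 in line 1.2. Med31, a small middle subunit conserved from yeast, rose by 0.54 ± 0.11 (adjusted p = 0.000144). Its levels were low, 10.4 and 8.39 CPM in line 1.1 JQ1 and 9.59 and 10.3 CPM in line 1.2 JQ1, against 6.53 and 6.02 CPM in line 1.1 DMSO and 6.77 and 7.29 CPM in line 1.2 DMSO, again without overlap. Some 26.3% of its exon bases are shared with 4930563E22Rik on the opposite strand, which did not pass the filter.

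Med4, part of the middle module's core, rose by 0.30 ± 0.05 (adjusted p = 1.23e-05). Med10 was called at 0.54 ± 0.22 (adjusted p = 0.0354) but had only 1.44 to 3.72 CPM, shares 92.8% of its exon bases with Gm26819 on the opposite strand, and is among the calls lost without 1 library. Med7, Med9, Med21 and Med26, which docks elongation factors, were not called (-0.08 to 0.12).

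In the head module, which contacts Pol II directly, Med8 fell. It had 31.6 and 32.7 CPM in line 1.1 JQ1 and 30.4 and 31.0 CPM in line 1.2 JQ1, against 47.4 and 47.3 CPM in line 1.1 DMSO and 46.6 and 43.6 CPM in line 1.2 DMSO. The JQ1 values clustered well under the DMSO values. The change was -0.56 ± 0.05 on the log2 scale (adjusted p = 2.02e-09), and within the lines it was -0.56 and -0.55. Med6 fell by 0.34 on that scale (SE 0.08, adjusted p = 0.000497), to 14.5 and 13.4 CPM in line 1.1 JQ1 and 14.4 and 13.6 CPM in line 1.2 JQ1, against 15.9 and 17.1 CPM in line 1.1 DMSO and 18.1 and 19.96 CPM in line 1.2 DMSO. Its groups did not overlap, although in line 1.1 alone the adjusted p was 0.0743. Med20 fell by 0.23 (SE 0.06), and 28.4% of its exon bases are shared with other genes. Among these, Gm20517 on the same strand rose by 0.89 (adjusted p = 0.0403). Med11, Med17 (the head's scaffold), Med18 and Med22 were not called (-0.16 to 0.02).

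The tail module, the target of many activators, moved little. Med25 rose by 0.23 ± 0.05 (adjusted p = 0.000147), with 72.05 and 68.4 CPM in line 1.1 JQ1 and 65.8 and 63.9 CPM in line 1.2 JQ1, against 60.8 and 65.8 CPM in line 1.1 DMSO and 50.7 and 54.2 CPM in line 1.2 DMSO. Med24 changed by -0.24 ± 0.04 (adjusted p = 9.52e-06), with 97.4 and 96.0 CPM in line 1.1 JQ1 and 103.7 and 103.7 CPM in line 1.2 JQ1, against 118 and 121 CPM in line 1.1 DMSO and 122 and 112 CPM in line 1.2 DMSO. Neither gene's groups overlapped within a line. Med14, the backbone of the complex, Med15, Med16 and Med23 were not called in the averaged effect (-0.03 to 0.08). In line 1.2 alone Med16 rose by 0.22 ± 0.07 (adjusted p = 0.014), against -0.06 ± 0.07 in line 1.1, where it was not called.

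In the kinase module, Med12, which activates the module's kinase, fell. Its levels were 61.6 and 60.2 CPM in line 1.1 JQ1 and 65.3 and 70.4 CPM in line 1.2 JQ1, against 77.3 and 94.2 CPM in line 1.1 DMSO and 84.9 and 91.7 CPM in line 1.2 DMSO. The JQ1 libraries were the 4 lowest of the 8. The log2 change was -0.43 ± 0.05 (adjusted p = 1.61e-07). Med13, which tethers the module to the rest of Mediator, had a change of 0.04 ± 0.04 and was not called, while its relative Med13l rose by 0.22 ± 0.04 (adjusted p = 4.91e-05). Med13l had 85.2 and 87.1 CPM in line 1.1 JQ1 and 90.05 and 91.7 CPM in line 1.2 JQ1, against 72.4 and 77.0 CPM in line 1.1 DMSO and 78.0 and 76.7 CPM in line 1.2 DMSO, with the JQ1 libraries above the DMSO libraries throughout. Med12l, the relative of Med12, had 0 to 2 reads per JQ1 library and 1 to 9 reads per DMSO library and was not tested. Of the kinase partners outside the symbol rule, Ccnc, the cyclin, fell by 0.42 on the log2 scale (SE 0.07, adjusted p = 7.57e-06), whereas Cdk8 (-0.05) and Cdk19 (-0.01) were not called.

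Of the other Mediator subunits, Med27 was called higher (0.23 ± 0.07, adjusted p = 0.00913) and Med28 and Med30 lower (-0.15 ± 0.05 and -0.19 ± 0.07), and all 3 calls were lost without at least 1 library. Med27 had 23.1 and 19.9 CPM in line 1.1 JQ1 and 22.2 and 20.7 CPM in line 1.2 JQ1, against 19.4 and 17.8 CPM in line 1.1 DMSO and 18.8 and 17.5 CPM in line 1.2 DMSO. Without replicate 1 of line 1.1 JQ1 its adjusted p was 0.0799. Med30 had 24.2 and 21.9 CPM in line 1.1 JQ1 and 23.8 and 21.3 CPM in line 1.2 JQ1, against 26.2 and 25.5 CPM in line 1.1 DMSO and 23.8 and 28.0 CPM in line 1.2 DMSO, where the groups nearly touched. Its adjusted p of 0.0228 became 0.103 without replicate 2 of line 1.1 JQ1, 0.115 without replicate 2 of line 1.2 JQ1 and 0.168 without replicate 2 of line 1.2 DMSO.

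**Figure D3:**
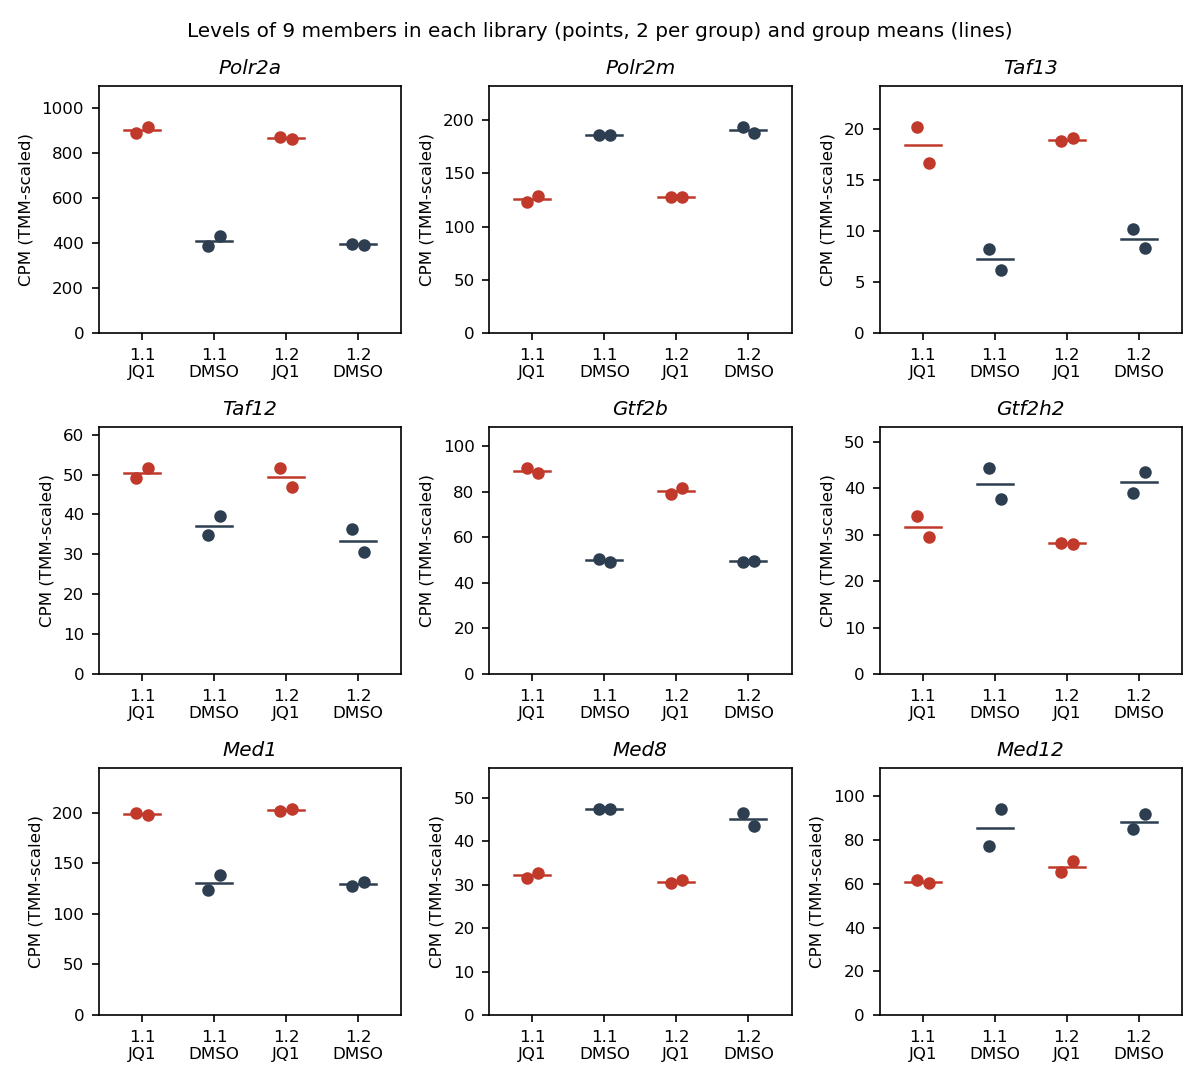
Each panel gives the level in CPM (linear axis from 0) of a Pol II, TFIID, TFIIB, TFIIH or Mediator gene in the 8 libraries as points, with a line at each group's mean of 2 libraries; JQ1 groups are red and DMSO groups dark. In all 9 panels the JQ1 points of a line lie on one side of its DMSO points, above them for Polr2a, Taf13, Taf12, Gtf2b and Med1 and below them for Polr2m, Gtf2h2, Med8 and Med12.

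Among the TFIID TAFs, 9 of the 14 tested were called higher in JQ1 (64.3%, against 30.7% of all genes tested), 0 lower (31.3% of all) and 5 were not called, with a median log2 change of 0.13. Without the calls that depended on 1 library (Taf4b, Taf6 and Taf10), 6 were left: Taf13, Taf12, Taf2, Taf4, Taf7 and Taf3. The same demand was not made of all genes tested, so these 6 cannot be set against the 30.7%. With Gm42418 as a covariate Taf3 had a change of 0.07 (adjusted p = 0.489) and was not called. Taf13, which forms a histone-fold pair with Taf11, had the largest averaged change of the 72 genes. It had 20.2 and 16.7 CPM in line 1.1 JQ1 and 18.8 and 19.1 CPM in line 1.2 JQ1, against 8.20 and 6.21 CPM in line 1.1 DMSO and 10.2 and 8.28 CPM in line 1.2 DMSO. Again no JQ1 library overlapped a DMSO library. The log2 change was 1.19 ± 0.10 (adjusted p = 1.89e-10), with 1.34 ± 0.14 in line 1.1 and 1.04 ± 0.14 in line 1.2, which did not differ past the threshold (adjusted p = 0.722). Its partner Taf11 was not called (-0.06 ± 0.06).

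Taf12, the histone-fold partner of Taf4 and Taf4b, rose by 0.50 ± 0.06 (adjusted p = 9.49e-08). It had 49.2 and 51.6 CPM in line 1.1 JQ1 and 51.6 and 47.0 CPM in line 1.2 JQ1, against 34.9 and 39.5 CPM in line 1.1 DMSO and 36.3 and 30.5 CPM in line 1.2 DMSO, without overlap. Taf4 rose by 0.34 ± 0.04 and Taf2, which contacts DNA at the initiator, by 0.34 ± 0.04. Taf7, which binds Taf1, rose by 0.32 ± 0.05 and Taf3, which reads trimethylated histone H3, by 0.19 ± 0.05. Taf1, the largest subunit with a pair of bromodomains, was not called (0.01 ± 0.04), nor were Taf5, Taf8, Taf9 and Taf11. Taf9 shares 73.8% of its exon bases with Ak6 on the same strand, which rose by 0.30 (adjusted p = 4.21e-06). With this overlap and only 2.64 to 3.79 CPM, the value of Taf9 is uncertain. Taf10 and Taf6 share 45.9% and 26.5% of their exon bases with Ilk and Ap4m1 on the opposite strand. Ilk (0.08) and Ap4m1 (0.05) were not called. Taf7l had at most 1 read in any library, and Taf9b had 3 to 11 reads per JQ1 library and 0 to 4 per DMSO library; neither was tested.

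Of the 4 genes named TAF that work outside TFIID, 1 rose and 2 fell (30.7% and 31.3% of all genes tested). Taf15, an RNA-binding protein of the FET family, rose by 0.37 ± 0.04 (adjusted p = 4.82e-09), with 215 and 208 CPM in line 1.1 JQ1 and 196 and 192 CPM in line 1.2 JQ1, against 165 and 155 CPM in line 1.1 DMSO and 148 and 160 CPM in line 1.2 DMSO. Taf1b, a subunit of the Pol I factor SL1, changed by -0.41 ± 0.07 (adjusted p = 9.42e-06), with 19.7 and 18.5 CPM in line 1.1 JQ1 and 19.4 and 21.6 CPM in line 1.2 JQ1, against 28.0 and 25.2 CPM in line 1.1 DMSO and 25.5 and 26.7 CPM in line 1.2 DMSO. For both genes the JQ1 and DMSO libraries were fully apart. Taf5l, a subunit of the SAGA coactivator, changed by -0.21 ± 0.04, and its complex partner Taf6l was not called (0.10 ± 0.06). Around TBP, 2 of 5 tested genes of the list were called, both higher (30.7% of all genes tested): Btaf1, an ATPase that removes TBP from DNA, at 0.49 ± 0.04 and Dr1, a subunit of the TBP-binding repressor NC2, at 0.37 ± 0.04. Tbp itself had 69.1 to 78.3 CPM in JQ1 and 65.5 to 72.8 CPM in DMSO and was not called (0.08 ± 0.04, adjusted p = 0.0986).

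Of the 7 genes of TFIIA, TFIIB, TFIIE and TFIIF tested, 4 were called higher (57.1%, against 30.7% of all genes tested) and 1 lower (14.3%, against 31.3%), with a median log2 change of 0.13. Gtf2b is TFIIB, which bridges TBP at the promoter and Pol II. Its levels were 90.3 and 88.2 CPM in line 1.1 JQ1 and 78.8 and 81.6 CPM in line 1.2 JQ1, against 50.6 and 49.2 CPM in line 1.1 DMSO and 49.3 and 49.5 CPM in line 1.2 DMSO. JQ1 libraries of either line were clear of all DMSO libraries. The log2 change was 0.77 ± 0.04 (adjusted p = 1.39e-13), with 0.84 in line 1.1 and 0.70 in line 1.2.

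Partner subunits of these factors were called differently. The small TFIIA subunit Gtf2a2 rose by 0.34 ± 0.05 (adjusted p = 5.59e-07), with 78.3 and 74.7 CPM in line 1.1 JQ1 and 73.5 and 77.7 CPM in line 1.2 JQ1, against 59.1 and 54.6 CPM in line 1.1 DMSO and 61.8 and 64.8 CPM in line 1.2 DMSO. Its partner Gtf2a1 fell by 0.23 (SE 0.04), with 55.5 to 59.0 CPM in the JQ1 libraries and 62.5 to 68.2 CPM in the DMSO libraries. Neither gene's JQ1 and DMSO libraries overlapped. In TFIIF, Gtf2f1 rose by 0.33 ± 0.04 while Gtf2f2 was not called (-0.07 ± 0.05). In TFIIE, Gtf2e2 was called at 0.13 ± 0.05, a call lost without 1 library, and Gtf2e1 was not (-0.03 ± 0.05). Differences between partner genes were not tested. Gtf2a1l, a germ cell relative of Gtf2a1, had 0 reads in all 8 libraries, which allows up to 3 reads in each for counting error.

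All 5 TFIIH genes in the set were called (62% of all genes tested were), 3 lower and 2 higher (31.3% and 30.7% of all), with a median log2 change of -0.31. Gtf2h2, which binds the Ercc2 helicase, had 34.0 and 29.4 CPM in line 1.1 JQ1 and 28.3 and 28.1 CPM in line 1.2 JQ1, against 44.4 and 37.7 CPM in line 1.1 DMSO and 39.1 and 43.6 CPM in line 1.2 DMSO. The 4 JQ1 values were the lowest of the 8, and the log2 change was -0.47 ± 0.06 (adjusted p = 9.64e-07). Gtf2h4, another subunit of the TFIIH core, changed by -0.32 ± 0.06 (adjusted p = 6.52e-05), with 26.8 and 29.7 CPM in line 1.1 JQ1 and 29.0 and 27.5 CPM in line 1.2 JQ1, against 36.1 and 38.2 CPM in line 1.1 DMSO and 35.9 and 31.5 CPM in line 1.2 DMSO. Here too the JQ1 libraries were the 4 lowest. Gtf2h1 changed by -0.31 ± 0.03 (adjusted p = 1.99e-08) and was the most abundant of them per length, at 143.9 TPM over the 8 libraries. The 2 higher calls, Gtf2h5 (0.15 ± 0.05) and Gtf2h3 (0.13 ± 0.05), were lost without 1 library. Of the 5 TFIIH genes outside the symbol rule, the 3 of the kinase part fell: Ccnh by 0.38, Mnat1 by 0.19 and the kinase Cdk7 by 0.17 on the log2 scale (adjusted p = 0.00459 for Cdk7). The helicase gene Ercc2 rose by 0.29 (SE 0.04, adjusted p = 2.13e-06), and Ercc3 was not called (0.04 ± 0.04).

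Among the 19 subunits specific to Pol I and Pol III, 6 rose and 5 fell, shares near the 30.7% and 31.3% of all genes tested, with a median of 0.01. Polr1b, a large catalytic subunit of Pol I, fell by 0.43 (SE 0.03, adjusted p = 5.97e-11). Znrd1 (-0.43 ± 0.09) and Polr3d (-0.36 ± 0.06) were also lower. Other Polr1 genes were called higher: Polr1a (0.14 ± 0.03, adjusted p = 0.00043), Polr1c (0.19 ± 0.05) and Polr1d (0.12 ± 0.04). Another list held 17 genes for Pol II assembly, the elongation factor TFIIS and phosphatases of the repeat tail. Of these, 5 rose and 8 fell (30.7% and 31.3% of all genes tested). Ctdspl2, a phosphatase of the CTD small phosphatase family, rose by 0.57 ± 0.04. Its relatives Ctdsp1 (-0.43 ± 0.04), Ctdsp2 (-0.17 ± 0.04) and Ctdspl (-0.43 ± 0.18) were called lower. Of the TFIIS genes, Tcea2 changed by -0.65 ± 0.13, at only 4.47 to 9.75 CPM. The more abundant Tcea1 (188 to 220 CPM) changed by -0.10 ± 0.04.

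The next comparison asked whether the lines responded differently. No gene of the 72 passed the test of the difference between the JQ1 effects, line 1.2 minus line 1.1 (of all genes tested 0.113% did, 0.0806% higher and 0.0322% lower, 14 genes), and the smallest adjusted p was 0.413, for Polr2j. At an unadjusted p under 0.05 there were 7 (Med16, Med22, Med29, Polr2c, Polr2j, Polr2k and Gtf2h5), against 8.06% of all genes, and DESeq2 and limma-voom each called 0. Without replicate 1 of line 1.1 DMSO, 3 were called higher. Across the 72 genes the change in line 1.2 followed that in line 1.1 (Pearson 0.911, Spearman 0.859), as a description of genes that share libraries within each line. In 3 genes, Med22, Med29 and Polr2k, the libraries were apart in both lines but in opposite order (2.13% of all genes tested). Polr2k had 28.3 and 31.5 CPM in line 1.1 JQ1 against 27.2 and 26.5 CPM in line 1.1 DMSO, and 26.9 and 24.4 CPM in line 1.2 JQ1 against 28.8 and 27.6 CPM in line 1.2 DMSO. For Polr2k these gaps were small beside the spread, and the difference of its JQ1 effects had an adjusted p of 0.584. The same test gave an adjusted p of 0.592 for Med22 and 0.612 for Med29.

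**Figure D4:**
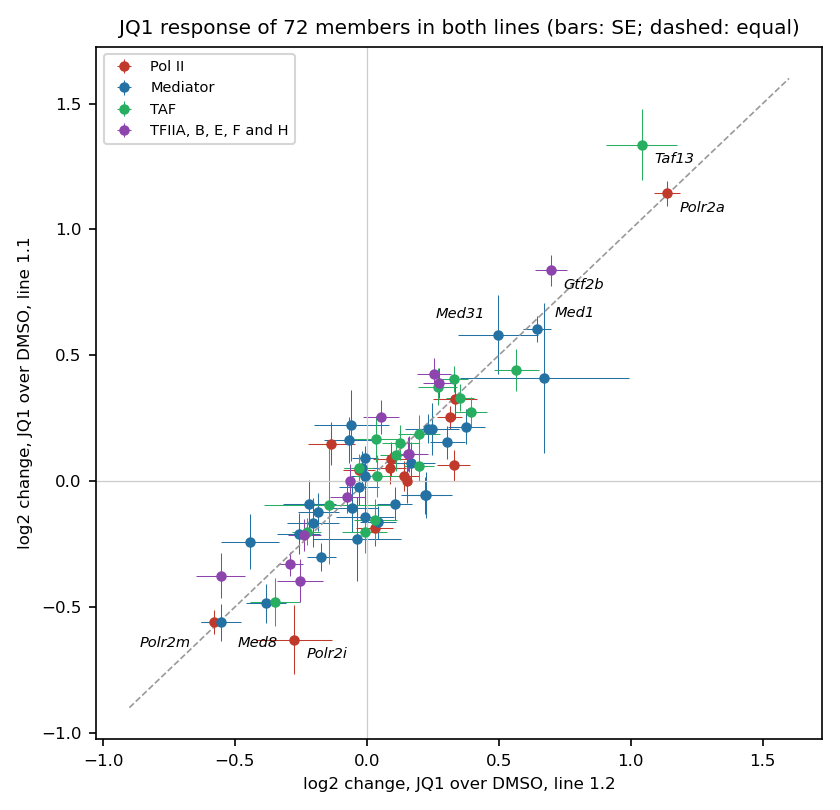
Each point is a gene, with its log2 change, JQ1 over DMSO, in line 1.2 on the x axis and in line 1.1 on the y axis, and bars of 1 standard error; the dashed line marks equal changes. The 72 points follow the dashed line (Pearson 0.911), with Polr2a and Taf13 at the upper right.

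The lines were also set against each other without and with the drug. In DMSO, 0 of the 72 genes were higher in line 1.2 (3.59% of all genes tested) and 2 lower (3.17% of all; 6.77% in either direction), Med25 and Polr2c. Med25 had 50.7 and 54.2 CPM in line 1.2 and 60.8 and 65.8 CPM in line 1.1, a log2 difference of -0.27 ± 0.07 (adjusted p = 0.0154). Polr2c had 64.6 and 57.1 CPM in line 1.2 and 75.0 and 68.3 CPM in line 1.1, a difference of -0.24 ± 0.07 (adjusted p = 0.0344), and shares 18.1% of its exon bases with Dok4 on the opposite strand. The groups were apart for both genes, but leaving out a library ended the call for Med25 in 3 of 8 cases (adjusted p up to 0.167) and for Polr2c in 6 of 8 (up to 0.433). In JQ1, 1 gene was higher in line 1.2 (3.49% of all), Med16, a tail subunit named after its values were seen, and 0 were lower (2.92% of all; 6.4% in either direction). Med16 had 56.8 and 57.4 CPM in line 1.2 and 50.1 and 44.8 CPM in line 1.1, a difference of 0.26 ± 0.07 (adjusted p = 0.0295), which was lost without replicate 2 of line 1.1 JQ1 (adjusted p = 0.336) or without either JQ1 library of line 1.2 (0.174 and 0.166).

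Over the 72 genes, the first principal component of log2 CPM held 77.3% of the variance and parted JQ1 from DMSO libraries, and the next held 6.69%. The change under JQ1 had little relation to exon length (Spearman 0.14), gene span (0.09) or mean level (0.195) across the 72 genes, which share libraries and are not independent.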

How the data were processed

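For 8 libraries the authors deposited unnormalised read counts, 1 whole number per Ensembl gene and library. Per the labels' protocols, RNA was isolated with a NucleoSpin kit and libraries were made with a TruSeq RNA kit. GRCm38 (mm10) was the genome, and HTSeq, TopHat, Bowtie2, cutadapt 1.7, FastQC and limma were used, per the submitters' processing notes. Neither annotation release nor strand setting is given in the sources used here, so reads of genes that overlap on opposite strands cannot be told apart. The 5 summary lines of HTSeq were left out (no feature, 12.3 to 14.4% of reads in the file; ambiguous, 1.54 to 1.67%). Gene identifiers were matched to symbols (42462 of 43629), and positions, exon lengths and overlaps are from GENCODE M21 on GRCm38.

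In R 4.3.3, edgeR 4.0.16 kept 12413 genes by filterByExpr (minimum count 10, minimum total 15), scaled libraries by TMM, fitted 4 group means to all 8 libraries (4 residual degrees of freedom) and tested contrasts two-sided with the quasi-likelihood F test. Adjusted p-values are Benjamini-Hochberg values over all genes tested (threshold 0.05). Changes are log2 with SE. CPM is per TMM-scaled library, and TPM was computed from counts and exon length. The fit was tested on simulated counts.

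Genes given in full were, per complex or module, those with the largest averaged change among called genes averaging 5 CPM or more, the 3 largest changes in Pol II, and those called between lines. Polr2b and Polr2k are also given in full and were chosen after their values were seen. The members and lists were chosen with earlier results of these data known. Alternatives were other scalings, DESeq2 1.42.0, limma-voom (limma 3.58.1), other filters, a replicate block, each library left out, only the 4 libraries compared, an additive model, Gm42418 as a covariate, a test against 1.5-fold and an adjusted p under 0.01. Replicates of a group differed by more than sampling noise (chi-square per degree of freedom 1.46 to 4.83), so none was counted as a duplicate.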

Additional observations from a re-analysis of the deposited data

How the results depend on the processing

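Tested against a fold change of 1.5, the averaged effect kept 3 higher calls (Polr2a, Taf13 and Gtf2b) and 0 lower, line 1.1 kept 3 and 0, line 1.2 kept 2 and 0, and both line differences kept 0. The 2 lower calls between lines in DMSO became 0 with DESeq2, at a threshold of 0.01 and with only the 4 libraries compared. The 1 higher call between lines in JQ1 became 0 with DESeq2 and at 0.01, and 2 with only the 4 libraries, where 7 were lower, against 1 lower with no filter on low counts. Leaving out each library in turn gave 21 to 28 higher and 13 to 18 lower calls for the averaged effect, 14 to 21 and 11 to 16 in line 1.1, 17 to 27 and 9 to 14 in line 1.2, 0 to 3 and 0 to 0 for the difference of JQ1 effects, 0 to 1 and 0 to 5 between lines in DMSO, and 0 to 1 and 0 to 6 in JQ1. The cause of these shifts was not tested. For the averaged effect 42 genes were called, against 33 with DESeq2, 41 with limma-voom, 39 with library totals and 36 with Gm42418 as a covariate. Among the genes given in full, except Polr2b and Polr2k, no called direction reversed under any of these alternatives. The directions of other called genes were not checked in this way. The labels do not say whether replicate numbers pair the samples. Libraries with the same number showed little shared deviation (correlations -0.06 to 0.05), though a weak shared effect could go unseen. A replicate block gave 43 calls. Med12l, Taf7l, Taf9b and Gtf2a1l had too few reads to be tested.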

Other observations

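Over the 8 libraries, the genes whose log2 CPM most resembled that of Polr2a, among 9381 genes averaging 5 CPM or more, were Il20rb (Pearson 0.998), Pgm2l1 (0.998), Pik3r1 (0.998), Gsk3b (0.997) and Aplp2 (0.997). The rank is a description over 8 libraries, in which the drug sets most of the variance.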
